A study of Mus musculus with 125 samples.

Results

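In E12 mouse embryos, 2974 stretches of open chromatin carried a peak in endothelial nuclei of brain, heart and trunk and carried none in any endothelial library made after birth. They were found by merging all overlapping peaks of the 37 endothelial ATAC-seq lists into 275396 regions. A region was kept when it held a peak in at least 2 E12 endothelial libraries of each of the 3 embryonic tissues and in none of the 14 P6 and 12 adult endothelial libraries. The E12 part of this rule was met by 64841 regions, 23.5% of all regions, and the lost regions were 4.59% of those. The regions were thus chosen by the measured presence and absence of endothelial peaks, so the loss itself is a description and carries no test. The other 61867 E12 regions, which held a postnatal endothelial peak, are called kept regions here.

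ATAC-seq marks DNA that a transposase can enter, and a peak is a stretch where such cuts pile up. The study profiled endothelial nuclei and input nuclei, meaning nuclei of the whole tissue, from brain, heart and trunk at E12 and from brain, heart, kidney, liver, lung and retina at P6 and in adults. All ATAC-seq groups, inputs included, came from mice in which tamoxifen (0.015 mg per kg) turned on a GFP reporter in vessels. Dams were injected intraperitoneally at E10.5 and embryos taken at E12.5. Pups were injected under the skin at P1 and P3 and, by the written protocol, taken at day 7 although their group is called P6. Adults were 2 months old and were injected 7 days before collection. No tamoxifen is listed for the single-cell libraries used below. The driver of the reporter, and whether libraries came from separate animals, are not given in the sources used here, so p-values below measure only the spread between libraries.

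Endothelial cells line blood vessels. In the embryo they divide and migrate to build vascular networks, some of them in the endocardium and dorsal aorta turn into mesenchyme or blood, and each organ's vessels are still taking on their later form. Distal enhancers, which act on genes from a distance, usually change between stages more than promoters do, and many are bound by ETS, SOX, GATA and forkhead factors in this lineage.

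The lost regions seldom lay at gene starts, and the few that did show what such a promoter looks like. Of 32851 listed RefSeq promoter windows (GRCm38.p6, 250 bases before to 50 after a start), 100 overlapped a lost region. The 250 bases before the start are printed for 4 genes where they lie wholly inside a lost region, 5′ to 3′ on the gene's strand, with capitals for motif letters that were searched for. They were chosen after their values were seen: the strongest lost promoter, a lymphoid adaptor with no peak in any input, the window with the most motifs, and a Hox gene. The stretches lie at chr8:87563657-87563906 for 4933402J07Rik (plus strand), chr1:133690109-133690358 for Lax1 (minus), chrX:6415492-6415741 for Shroom4 (plus) and chr2:74682073-74682322 for Hoxd11 (plus).
4933402J07Rik: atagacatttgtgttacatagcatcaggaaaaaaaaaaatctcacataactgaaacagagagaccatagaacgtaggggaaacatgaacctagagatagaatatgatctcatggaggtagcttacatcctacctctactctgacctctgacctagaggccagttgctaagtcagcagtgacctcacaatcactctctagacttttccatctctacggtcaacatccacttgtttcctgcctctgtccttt
Lax1: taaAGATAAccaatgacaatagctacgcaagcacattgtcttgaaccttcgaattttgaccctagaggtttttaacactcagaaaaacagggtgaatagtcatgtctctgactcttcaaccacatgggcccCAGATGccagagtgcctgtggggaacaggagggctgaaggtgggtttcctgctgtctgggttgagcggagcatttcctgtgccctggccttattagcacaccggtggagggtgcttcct
Shroom4: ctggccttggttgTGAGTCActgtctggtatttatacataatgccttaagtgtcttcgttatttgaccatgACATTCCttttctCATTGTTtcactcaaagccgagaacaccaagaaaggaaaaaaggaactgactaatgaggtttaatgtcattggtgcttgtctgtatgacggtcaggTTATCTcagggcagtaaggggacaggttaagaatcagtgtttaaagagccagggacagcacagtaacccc
Hoxd11: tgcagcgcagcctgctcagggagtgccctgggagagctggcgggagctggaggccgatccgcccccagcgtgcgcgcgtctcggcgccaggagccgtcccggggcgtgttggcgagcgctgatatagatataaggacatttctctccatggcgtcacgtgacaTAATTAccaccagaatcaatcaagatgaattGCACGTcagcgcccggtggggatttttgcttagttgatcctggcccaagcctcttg

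The lost region over the 4933402J07Rik start, an uncharacterised gene, ranked among the strongest of all. Its peaks had folds of 4.76 at the lowest, 6.33 at the median and 8.65 at the highest over 10 E12 endothelial libraries, where the fold is the authors' value of pileup over local background within a list. No searched motif was found in its 250 bases. Over the starts of Lax1 and Shroom4 the median folds were 3.55 and 3.28, each in 10 libraries. Shroom4 belongs to a family of actin-binding regulators of cell shape, and its window held the AP-1, GATA, SOX and TEAD letters. Over the Hoxd11 start the fold was 2.56 at the median of 6 libraries, which is the fewest the rule allows, and 2 of 3 E12 inputs and 5 P6 inputs also held a peak there. These 4 starts thus range from near the top of the E12 lists to near the bottom.

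The promoter windows that overlapped a lost region were poor in CpG, with a median of 6 per 300 bases against 20 in the 15929 windows over kept regions and 7 in all listed windows. At least 10 CpG were counted in 29% of them, against 80.7% over kept regions and 43.5% of all. The SOX letters (ACAAAG and AACAATG, both strands) were in 35% of the lost windows, 14.8% of the kept and 21.7% of all. The GATA letters (AGATAA) were in 19%, 6.24% and 11.2%, and the forkhead letters (TGTTTAC) in 9%, 2.45% and 3.65%. The homeobox letters (TAATTA) were in 8%, 2.40% and 5.29%. The ETS letters (ACCGGAAGT and CAGGAAGT) were in 5%, 5.47% and 4.40%. Of the other motifs searched, E-box (CAGCTG and CATCTG) was in 35%, 25.1% and 30.6%, MEIS (TGACAG) in 22%, 16.4% and 19.2%, AP-1 (TGANTCA) in 8%, 4.70% and 7.81%, and TEAD (ACATTCC) in 4%, 2.77% and 3.85%. KLF (GGGTGTGG) was in 4%, 3.64% and 3.56%. Lower over lost than over kept windows were HIF (ACGTGC), at 5%, 8.42% and 5.91% of all, CTCF, at 1%, 3.16% and 2.43%, and LEF/TCF (ATCAAAG), at 2%, 2.48% and 3.73%. NFI was in 1%, 0.301% and 0.286%, and MEF2 in 0 lost windows, 0.188% and 0.164%. The median GC content was 50.3% over lost regions, 61.3% over kept regions and 52.7% in all listed windows, so the kept windows stood apart from the others, and the part of base composition in the motif shares was not tested. Such a match is a description of letters and not of a bound factor. Of the 100 lost windows, from 90 genes, 52 were of protein-coding genes, against 13157 of 15929 kept and 21262 of all 32851. The part of this difference in the CpG, GC and motif values was not tested.

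Several microRNA genes lay beside lost regions. A lost region was found within 5 kb of 23 of 1005 hairpins, or 2.29%, while a region meeting the E12 part of the rule was found that near to 48.8%. Of the 490 hairpins with such a region, 23 had a lost one, which is near the 4.59% of all E12 regions, so nothing about microRNA genes as a class is read from the count. This window was chosen after seeing the data. Of the 23, 8 belong to the miR-290 to miR-295 cluster on chromosome 7, known for its activity in pluripotent cells, and 5 to the miR-17 to miR-92 cluster on chromosome 14, known for roles in proliferation and vessel growth. Both clusters hold several hairpins beside 1 lost region each, so their members are not independent. Mature sequences of both clusters and of 3 other hairpins near lost regions are printed to show which seeds are shared, with bases 2 to 8, the seed, in capitals.
miR-290a-5p: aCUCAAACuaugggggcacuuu
miR-292a-5p: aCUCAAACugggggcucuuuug
miR-293-5p: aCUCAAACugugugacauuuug
miR-294-3p: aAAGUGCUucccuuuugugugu
miR-295-3p: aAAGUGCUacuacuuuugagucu
miR-20a-5p: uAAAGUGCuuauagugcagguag
miR-6383: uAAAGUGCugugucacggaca
miR-18a-5p: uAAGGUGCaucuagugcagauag
miR-19a-3p: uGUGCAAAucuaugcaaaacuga
miR-19b-3p: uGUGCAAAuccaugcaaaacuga
miR-92a-3p: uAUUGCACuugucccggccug
miR-10b-5p: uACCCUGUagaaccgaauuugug
miR-135b-3p: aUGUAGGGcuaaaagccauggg

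The 5p arms of miR-290a, miR-292a and miR-293 share the seed CUCAAAC, and the 3p arms of miR-294 and miR-295 share AAGUGCU. The seed AAAGUGC of miR-20a-5p recurs in miR-6383, which lies on chromosome X beside another lost region, and the seed GUGCAAA is shared by miR-19a-3p and miR-19b-3p. The lost region next to the miR-290 cluster, chr7:3217476-3218062, held peaks in 9 E12 endothelial libraries, with folds of 2.48, 3.15 and 3.87 at the lowest, median and highest, and in 1 of 29 inputs, E12 heart. The region beside the miR-17 to miR-92 cluster, chr14:115048881-115049735, was weaker, with folds of 2.34, 2.47 and 2.68 over 8 libraries. The hairpin of miR-10b, a microRNA of the Hoxd cluster, lay 739 bp from a lost region at chr2:74726876-74728505 with folds of 2.39, 3.03 and 3.53 in 10 libraries. The hairpin of miR-135b overlapped a lost region at chr1:132197641-132198116, whose folds in 8 libraries were 2.52, 3.29 and 4.60. MicroRNA levels were not analysed here.

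The lost regions were weaker in the embryonic lists than the kept regions. Regions that met the E12 part were ranked by the mean, over the E12 lists that held them, of the fold's percentile within the list. The median of this rank was 43.4 for lost regions and 60.3 for kept regions, and 80.6 for the 10788 regions with a peak in all 26 postnatal lists. The share of E12 regions that were lost was 8.56% in the weakest decile, 5.04% in the fifth decile and 0.231% in the strongest decile. Lost regions were also narrower, 570 bp at the median against 930 bp. The width is that of peaks merged over all lists. Kept regions take in postnatal peaks too, so the choice can set this direction. The median was 613 bp for regions with a peak in exactly 1 postnatal list. Within single E12 lists the median fold of lost regions ran from 3.0 (trunk replicate 2) to 4.03 (heart replicate 3), and it was below that of kept regions in the same list in every one of the 11 lists (3.50 to 4.67). Among all peaks of a list, the median percentile of lost regions ran from 36.4 (trunk replicate 2) to 49.5 (trunk replicate 4). They thus lay below the middle of every list, but close to it in some.

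The embryonic lists were also longer. E12 endothelial lists held 39096 to 120456 peaks (median 101233), P6 lists 27160 to 92863 (median 69068) and adult lists 19464 to 47334 (median 36756). Top peaks of a list are, here and below, those most significant by the q value of the authors' caller. Fold decided only ties, so this order is not the fold rank used above. When the E12 lists were cut to their top 75000 peaks, with the postnatal lists whole, 976 regions met the rule. At 50000 peaks 190 did and at 30000 peaks 22 did. With 19464 top peaks taken from every list, 228 regions met the rule, and only 4 of the 2974 lost regions were touched by them, those nearest Il12a, Olfr513, Pde4d and Efna5. The number and identity of the lost regions therefore depend on how deep into the embryonic lists one reads. The tags left after the authors' filter numbered 10139069 to 59082479 per E12 library, 14021669 to 34352068 at P6 and 17931788 to 45389810 in adults. The share of tags the headers call redundant was 14 to 83% at E12, 8 to 27% at P6 and 10 to 23% in adults, and the part of these differences in the loss was not tested. In 1 E12 library, heart replicate 3, the list was short (39096 peaks, 83% redundant tags) and held only 5.95% of the lost regions, against 55.7 to 98.5% in the other 10. Without that library 2951 regions met the rule.

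**Figure D1:**
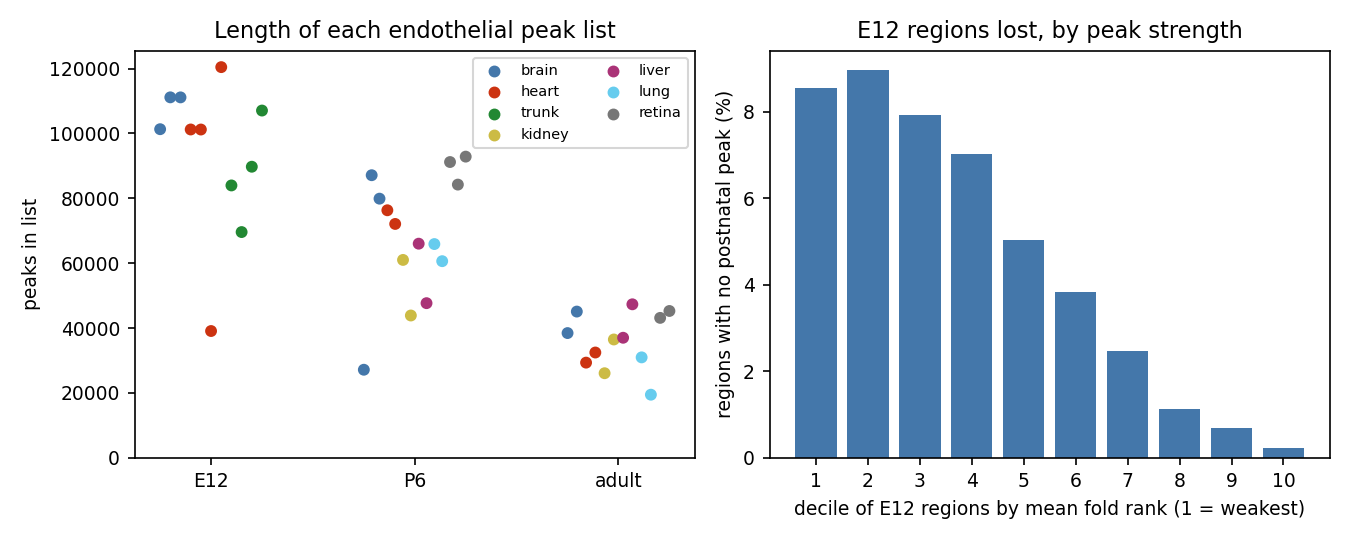
Left, number of peaks in each of the 37 endothelial lists, 1 point per library coloured by organ. Right, bars for the share of the 64841 E12 regions that had no postnatal endothelial peak, by decile of mean fold rank; the share is 8.56% in the weakest decile and 0.231% in the strongest.

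Regions on either side of the rule's postnatal edge had similar strength, and strength across its E12 edge was not compared. Just inside the E12 edge, 167 lost regions had peaks in only 6 E12 libraries, 2 per tissue, and 92 had one in all 11. Just outside the postnatal edge, 1956 regions, 3.02% of those meeting the E12 part, had a peak in exactly 1 postnatal endothelial library. That library was from P6 for 1894 of them and adult for 62. Their median rank was 45.2, against 43.4 for the lost regions. The strongest region just outside, chr12:95641484-95642464 near Flrt2, had folds of 7.44, 8.57 and 9.64 in all 11 E12 libraries. Of the postnatal endothelial libraries, P6 heart replicate 2 alone held a peak there, and so did 3 P6 inputs. The next strongest were nearest Gm33153, Gata3, Efr3a, Spink1, Grm7, Gm3213, Fam78b, Galnt17 and Crb1, with median folds of 5.45 to 6.20. Those of Grm7 and Crb1 lay inside the gene, while Gata3 was 995 kb away.

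The strongest lost regions lay in very different surroundings. The 1 at chr7:108760320-108760810, 4.53 kb from the olfactory receptor gene Olfr513, had folds of 7.44, 9.20 and 10.6 in the 3 brain lists, 7.84, 7.41 and 10.4 in 3 of 4 heart lists and 7.84, 6.65, 9.39 and 8.59 in the 4 trunk lists. All 3 E12 inputs held it too, and of the 26 postnatal inputs only P6 brain replicate 1 did. The second, chr7:87241139-87241586, lay 2.84 kb from Nox4, an NADPH oxidase that produces reactive oxygen in vessel walls, with folds of 5.19, 7.06 and 9.10 at the lowest, median and highest of 10 libraries. It was held by the E12 heart and trunk inputs and by 2 P6 lung inputs. A region inside Pde4d, a cyclic AMP phosphodiesterase, at chr13:109157561-109158298 had folds of 4.20, 6.68 and 8.43. No input of any age held that region.

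Others of the top 10 lay far from genes or inside long ones. The region nearest Anxa5, an annexin that binds phosphatidylserine, was 96.3 kb away at chr3:36351816-36352658 and was the only 1 of the 10 with a peak in all 11 E12 endothelial libraries, with a median fold of 6.29. The E12 brain input and 7 P6 inputs, of brain, lung and retina, also held it. The region nearest Ddhd1, a phospholipase, was 356 kb away, and a region inside Alk, a receptor tyrosine kinase, had a median fold of 6.73. Folds are set within each list, so their order between brain, heart and trunk was not read.

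**Figure D2:**
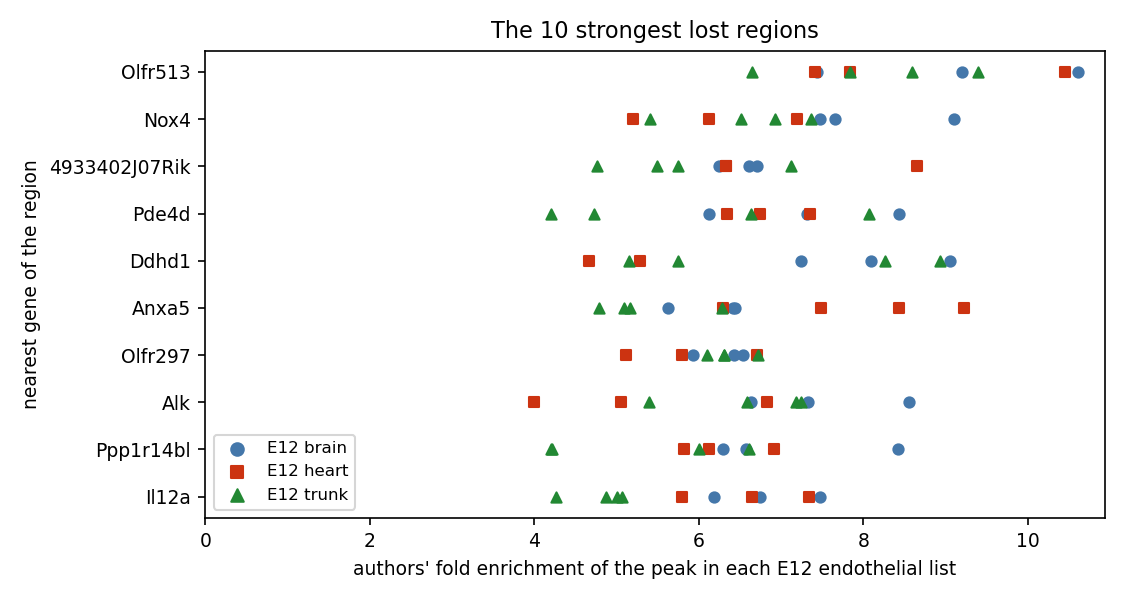
Authors' fold enrichment (x axis, linear from 0) in each E12 endothelial list for the 10 lost regions with the highest mean rank, named by nearest gene (y axis); 1 point per library that held a peak, 9 to 11 per region, with circles for brain, squares for heart and triangles for trunk. Folds run from 4.00 (Alk) to 10.6 (Olfr513).

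Most lost regions lay away from gene starts. A listed protein-coding start was within 1 kb of 83 lost regions, or 2.79%, against 18.3% of kept regions and 5.36% of all merged regions. The median distance to a listed start was 68012 bp for lost regions, 30606 bp for kept regions and 55841 bp for all. Inside a protein-coding gene lay 1372 lost regions, 46.1%, against 61.8% of kept and 53.9% of all regions. More than 50 kb from any such gene lay 786, 26.4%, against 13.1% of kept and 21.9% of all. The position of lost regions was thus nearer to that of all merged regions than to that of kept regions. It was not particular to them. Of the 1956 regions with a peak in exactly 1 postnatal endothelial library, 4.35% lay within 1 kb of a start. Inside a gene lay 47.6% of these, and more than 50 kb from any gene 24.1%. Chromosomes held between 3.03% (chromosome 19) and 6.22% (chromosome X) of their E12 regions as lost ones, leaving aside chromosome Y, where 0 of 37 were lost.

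The genes with the most lost regions are named by their count alone, and the nearest gene can lie far away. The farthest lost region lay 1625 kb from Tenm2, 1509 kb from Tenm3 and 1017 kb from Immp2l. It lay 802 kb from Efna5 and 755 kb from Serpinb8, but only 16.3 kb from Esrrg. Of all E12 regions 4.59% were lost, and choosing genes by their count favours shares above that. A lost region was nearest to 2260 of 21883 protein-coding genes, and to 482 of them more than once. Gpc5, a heparan sulphate proteoglycan of the cell surface, had 8 lost regions among the 35 E12 regions nearest to it, and the gene is 1433 kb long. Efna5, an ephrin ligand that repels Eph-bearing cells, had 7 of 20, of which 6 lay inside the gene. Xylt1, which starts glycosaminoglycan chains, had 6 of 24.

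Among transcription factors, Foxa2, of endoderm and floor plate, had 7 of 21 and Irx2, an Iroquois homeobox factor, 6 of 9. Pax3, of neural crest and muscle precursors, had 6 of 11, Sall3, a spalt-like zinc-finger factor, 6 of 14 and Esrrg, an orphan nuclear receptor, 6 of 21. Of the 7 lost regions near Foxa2, 6 had a peak in an E12 input and 6 in a postnatal input, and all lay outside the gene, 12 to 298 kb away. Esrrg was the opposite, with 5 of its 6 lost regions inside the gene and 5 with no peak in any input. Lpar1, a receptor for lysophosphatidic acid with a known part in vessel development, had 5 of 8, all of them inside the gene. Brinp1, Serpinb8 and the teneurin Tenm3 had 6 each. A further 18 genes had exactly 5, and the 9 of them with the highest mean fold rank are named here: Lpar1, the teneurin Tenm2, Nrg1, a growth factor that endocardium and endothelium send to heart muscle, the polarity gene Pard3, Auts2, Fam155a, Immp2l, Mast4 and the splicing factor gene Rbfox1. With the E12 lists cut to their top 75000 peaks each of these 20 genes had 1 to 3 lost regions, and with 50000 peaks 0 to 2. These counts thus rested on peaks further down the lists by q value.

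**Figure D3:**
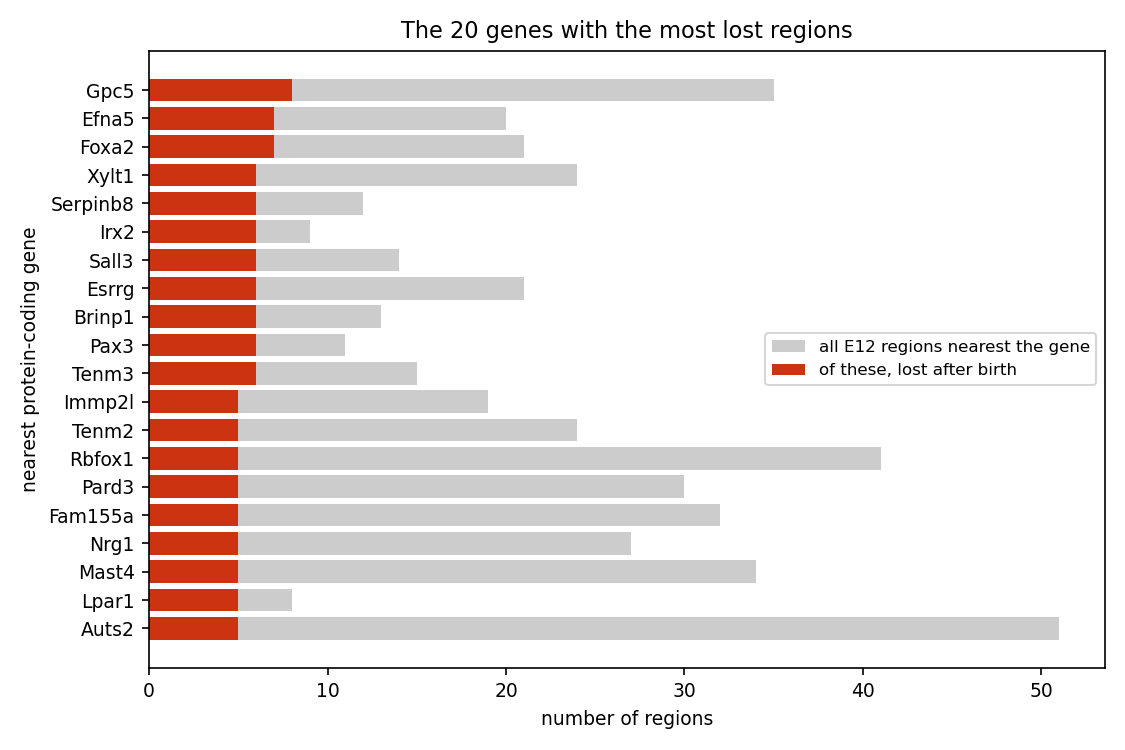
Number of regions (x axis) nearest to each of 20 protein-coding genes (y axis), the 11 with 6 or more lost regions and 9 of the 18 with 5, taken by higher mean fold rank. Grey bars are all E12 regions nearest the gene and red bars the lost ones among them, from 8 of 35 for Gpc5 to 5 of 51 for Auts2.

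Gene lists were read against the 15.3% of all protein-coding genes that had a lost region within 50 kb. Such a region can lie nearer to another gene than to the listed one, and can count for more than 1 listed gene. H19 and Meg3 of the fetal growth list are not protein-coding, so they lie outside the set that gave the 15.3%. Of 20 fetal growth genes, 8 had one: Lin28b and Meg3 with 3 each, Dlk1 with 2, and H19, Hmga2, Igf2bp1, Igf2r and Mest with 1 each. They are RNA-binding proteins, chromatin factors and imprinted genes that are known to be active before birth. Of the 190 E12 regions around the list, 12 were lost, or 6.32%, against the 4.59% of all. Within 10 kb, 2 of the 20 genes had a lost region, 10%, against 7.51% of all genes. The strongest lay 11.9 kb from Igf2bp1, at chr11:96017839-96018431, with folds of 4.31, 6.46 and 7.66 in 8 libraries. Gip was nearer to it, at 6.10 kb. The Mest region lay inside Cep41 and 1 Meg3 region 4.51 kb from Rtl1, and Dlk1 and Meg3 shared 1 region. Those inside Lin28b, a repressor of let-7 microRNAs, had median folds of 3.70, 4.57 and 2.48. The region 1.71 kb from Hmga2 was weak, with folds of 2.35, 2.53 and 3.01 at the lowest, median and highest of 8 libraries, yet all 3 E12 inputs held it.

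Of 20 genes of the endocardial cushion and of the change from endothelium to mesenchyme, 7 had a lost region within 50 kb. These were Tbx2 with 2 and Bmp4, Gata5, Gata6, Sox9, Tbx3 and Tgfb2 with 1 each, and 8 of the 139 E12 regions around the list were lost. The region 16.7 kb from Gata6 had folds of 2.67, 3.75 and 7.22 in 10 libraries, while that near Gata5 ranked low, at 4.46 on the percentile scale. Of 16 haemogenic and blood genes, 4 had one: Myb with 2, and Runx1, Gfi1 and Tal1. They were 5 of the 107 E12 regions around the list, or 4.67%, near the 4.59% of all. The lost region inside Runx1, the factor needed for blood to arise from endothelium, at chr16:92609224-92609743, had folds of 2.53, 3.24 and 4.80 in 9 endothelial libraries. It was also the most widely shared of that list in whole tissue, with all 3 E12, 10 P6 and 4 adult inputs holding it.

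Around general endothelial genes a smaller share of E12 regions was lost: 0 of 189 for identity genes, 0.926% for tip cell and angiogenesis genes and 2.03% for transcription factors, against 4.59% of all. The choice left out every region with a postnatal endothelial peak, so it can set this direction. None of 16 endothelial identity genes had a lost region within 50 kb, and 2 of 20 tip cell and angiogenesis genes did, Flt1 and Plxnd1, both with weak regions (ranks 3.37 and 0.359). Of 30 endothelial transcription factors, 6 had one: Foxc1 and Mecom with 2 each, and Erg, Hey2, Hhex and Sox17. No input held the regions of Foxc1, Mecom, Erg, Hhex and Sox17. The Foxc1 regions lay inside Gmds, and the Hhex region was nearer to Kif11. The stronger Mecom region, inside the gene at chr3:30379026-30379823, had folds of 3.45, 4.56 and 6.63 in 10 libraries. Mecom codes for a zinc-finger factor of haematopoietic and arterial endothelial cells. Of 24 Notch and Wnt genes, 4 had one (Fzd4, Hes1, Notch2 and Rbpj), and of 24 cell cycle genes 4 (Ccnb1, Ccnd1, Ccnd2 and Ccne1). Around these lists 1.72% and 1.96% of the E12 regions were lost, so low shares were not found around endothelial genes alone.

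Genes of other cell types also had lost regions nearby. A lost region lay within 50 kb of 5 of 12 macrophage genes, 4 of 12 mesenchyme genes, 3 of 12 neural genes and 3 of 12 cardiomyocyte genes. Of the E12 regions around these lists, 6.06%, 5.63%, 7.02% and 3.33% were lost, on both sides of the 4.59% of all. C1qa and C1qb, complement genes of macrophages, shared 1 lost region, at chr4:136907106-136907538, with a median fold of 4.67 in 9 libraries. Of 39 Hox genes, a list added after seeing the data, 10 had one. The 9 of the Hoxd cluster shared 4 lost regions, and Hoxb13 had 1, at chr11:96203262-96204140, with a median fold of 2.99 in 6 libraries. Together these were 5 of the 54 E12 regions around Hox genes. Leaving the Hox genes aside, 50 of 218 listed genes had a lost region within 50 kb, and 22 had one within 10 kb, where the share of all protein-coding genes was 7.51%.

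Peaks near marker genes bore on the label of the E12 lists. All 14 endothelial marker genes had a peak within 5 kb in each of the 11 endothelial lists, and the median percentile of the strongest such peak was 62.6 to 80.8. The 3 inputs also held a peak near all 14, at 54.0 to 79.3, so the presence of a peak near these markers did not set the lists apart. By organ, the percentile was 62.6 to 74.4 in trunk lists against 54.0 in the trunk input. It was 64.8 to 75.7 in brain lists against 79.3, and 67.2 to 80.8 in heart lists against 74.6. Of 6 erythroid markers, 1 to 3 had a peak in endothelial lists and 3 to 6 in the inputs. Macrophage markers had one for 2 to 5 of 6 genes in endothelial lists and 4 to 6 in inputs, and cardiomyocyte markers for 1 to 6 and 5 to 6 of 6. Neural progenitor markers had one for 7 to 8 of 8 genes and mesenchyme markers for 6 to 8 of 8 in the endothelial lists, so open chromatin near these genes did not set endothelial and input lists apart. The part of other cells in the lost regions was not tested.

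Whole-tissue libraries did not enter the rule, although they hold the same endothelial cells among others. Of the lost regions, 40.2% had a peak in the E12 brain input, 51.8% in the E12 heart input and 34.4% in the E12 trunk input. At least 1 of these 3 held 1886 of them, 63.4% (exact 95% binomial interval 61.7 to 65.2%, covering counting error only), against 84.1% of all regions meeting the E12 part. All 3 held 670, 22.5%, against 57.7%. In no input of any age was there a peak for 848, 28.5%, against 4.91%. The strongest of these, after the regions at 4933402J07Rik and Pde4d, lay 12.8 kb from the olfactory receptor gene Olfr297 and 44.2 kb from Ppp1r14bl. Also among the 10 strongest were regions inside Nebl, which codes for an actin-binding protein, and inside Ror2, a Wnt receptor, and regions 163 kb from Sgo2b, 117 kb from Jun and 5.24 kb from Il12a. A further 1 lay 334 kb from Pdgfd, a platelet-derived growth factor, and had a median fold of 7.54 in all 11 libraries.

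After birth the inputs held few of the lost regions. The share was 2.49% at the lowest, 9.70% at the median and 20.1% at the highest of 16 P6 inputs, and 0.235%, 1.75% and 9.18% in 10 adult inputs. The mean was 42.1% ± 8.87 (SD, n = 3) at E12 and 7.29% ± 5.45 (SD, n = 26) after birth, a difference of 34.8 points, and every E12 input lay above every postnatal one. Since the regions were chosen for E12 and against postnatal endothelial peaks, and inputs hold the same endothelial cells, the choice can set this direction and no test is given. With brain and heart inputs alone, the organs sampled at both stages, the difference was 35.2 points, from 2 E12 and 7 postnatal libraries. P6 inputs averaged 9.94% ± 5.05 (SD, n = 16) and adult inputs 3.06% ± 2.79 (SD, n = 10), a difference of 6.88 points with overlapping groups (permutation test, 2-sided, p = 0.00067). Within organs it averaged 6.41 points (permutation p = 0.00036). With the top 25880 peaks of every input it was 0.244 points (permutation p = 0.285), so it did not hold at equal list length. That cut also drops the weaker input peaks, and the part of list length in the difference was not tested.

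Input lists also shortened with age, and the share of kept regions was lower at later ages too. E12 inputs held 98934 to 144197 peaks, P6 inputs 40943 to 131710 and adult inputs 25880 to 94933. Kept regions had a peak in 72.0% ± 7.00 (SD, n = 3) of cases in E12 inputs, 60.7% ± 11.5 (SD, n = 16) in P6 inputs and 41.3% ± 13.9 (SD, n = 10) in adult inputs. With the top 25880 peaks of every input, the difference between E12 and postnatal inputs was 4.01 points. Per 10000 peaks of a list, on average, lost regions numbered 98.2 at E12, 31.2 at P6 and 14.3 in adults.

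**Figure D4:**
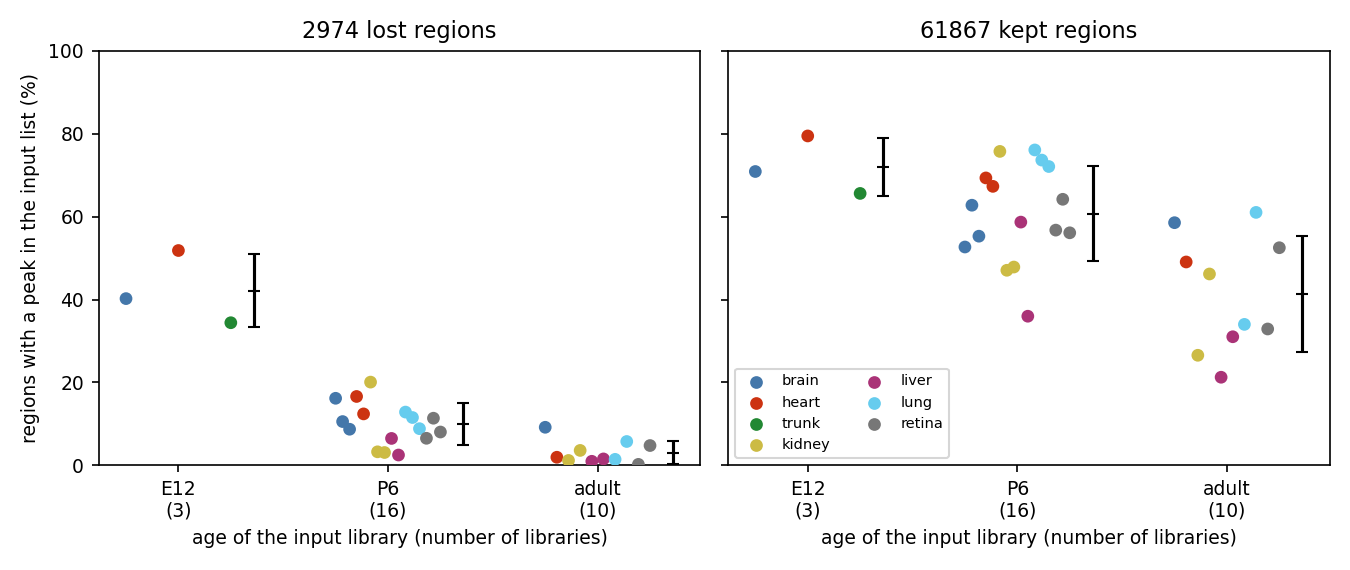
Share of regions with a peak in each whole-tissue input list (y axis, %), for the 2974 lost regions (left) and the 61867 kept regions (right), by age; 1 point per library coloured by organ, with the mean and SD beside each age. For lost regions the 3 E12 inputs sit between 34.4 and 51.8% and all postnatal inputs at or below 20.1%.

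Part of the lost regions had a peak in whole tissue after birth. Which cells carried it was not tested. Any postnatal input held 1534 of them, 51.6%, against 92.5% of all regions meeting the E12 part. Any adult input held 611, 20.5%, against 81.5% of kept regions and 37.0% of those with 1 postnatal library. Single P6 inputs held 8.71 to 16.2% in brain, 12.4 to 16.6% in heart, 8.84 to 12.8% in lung, 6.52 to 11.4% in retina and 2.49 to 6.49% in liver. In P6 kidney, replicate 1 held 20.1% and replicates 2 and 3 held 3.26 and 3.09%, so these libraries of 1 organ stood far apart. In adults the brain input held 9.18% and the heart input 1.95%. A peak in an E12 input and in no postnatal input was found for 592 lost regions, 19.9%, against 1.77% of kept regions, which is a description since both depend on list length. At least 1 E12 input held 65.1% of the lowest tercile of lost regions by rank and 62.0% of the highest. For the E12 brain input alone the shares were 46.0% and 37.6%, for the heart input 52.1% and 51.7% and for the trunk input 35.1% and 35.4%.

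Single brain cells gave the level of the genes nearest to lost regions. One library per age was made from CD31-selected brain cells at E9.5 and E12.5 and, with another dissociation and from cortex alone, at P8 and in adults, so age, dissection and library cannot be told apart and there is no test. Cells with a UMI (a counted molecule) of at least 3 of 8 endothelial genes numbered 6782 of 8310 at E12.5 and 6175 of 7305 at P8, and no doublet caller was run. Their UMIs were summed and scaled to the library's gated total as CPM. A gene without a UMI in a compared library was called neither lower nor higher but stayed in the total. Irx2, with 12 UMIs at E12.5 and 0 at P8, was such a gene. Of 1697 genes nearest to a lost region with at least 10 UMIs, 365, 21.5%, were at least 2-fold lower at P8 than at E12.5, against 19.2% of all 16336 genes, and 27% were at least 2-fold higher, against 22.3%. Of 11177 genes nearest only to kept regions, 18.5% were lower and 19.6% higher. With E9.5 in place of E12.5 the lower share was 25.3% against 20.4% and the higher share 29.1% against 28.9%, and with adult in place of P8 it was 22.9% against 23.8%, while 34.7% were higher against 29.4%. The E12.5 and P8 libraries shared 3 cell barcodes.

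The fetal growth genes with a lost region had lower levels at P8. H19, an imprinted non-coding RNA, was at 1254 CPM at E12.5 and 1.08 (exact 95% Poisson interval 0.841 to 1.36, counting error only) at P8. Mest was at 2631 and 26.6 CPM, Igf2bp1 at 63.0 and 0.201, Hmga2 at 46.3 and 0.679 and Dlk1 at 23.5 and 0.771. Lin28b was at 5.01 CPM at E12.5 and, from 2 UMIs, 0.0308 (0.00374 to 0.111) at P8. Meg3, at 273 and 57.2 CPM, and Igf2r, at 37.6 and 22 CPM, were lower by less. At least 2-fold lower were 7 of these 8 genes, and so were 8 of the 11 detected genes of the list without a lost region, among them Igf2bp2, Igf2 and Plagl1, against 19.2% of all genes. Of the others without a lost region, Igf1r was higher, at 72.3 and 356 CPM, and Hmga1 (1.11 and 0.925) and Arid3b (11.9 and 12) were at similar levels. Lower levels were therefore found with and without a lost region, and the list was chosen for genes known to be shut off after birth.

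**Figure D5:**
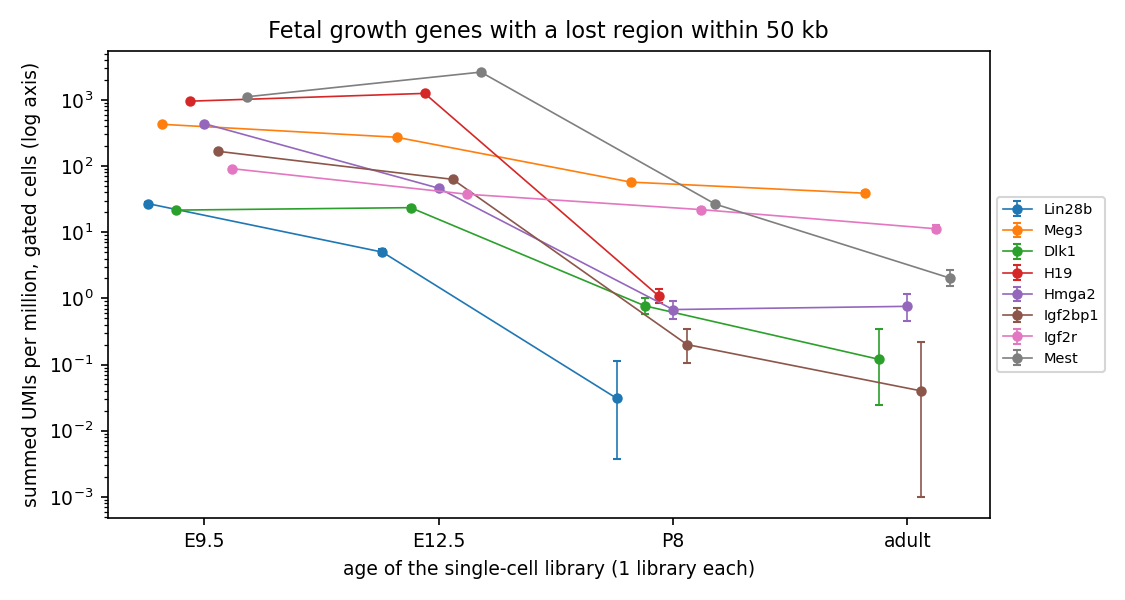
Summed UMIs as CPM (y axis, log scale) in gated cells of the E9.5, E12.5, P8 and adult brain libraries (x axis, 1 library each) for the 8 fetal growth genes with a lost region within 50 kb; bars are exact 95% Poisson intervals, and levels of 0 are left out. H19 is at 1254 at E12.5 and 1.08 at P8, while Meg3 is at 273 and 57.2.

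Other genes near lost regions went both ways. Runx1 was at 5.18 CPM at E12.5 and 0.910 at P8, Efna5 at 5.00 and 0.848 (but 6.91 in the adult library), Xylt1 at 6.00 and 1.31 and Brinp1 at 1.5 and 0.262. By contrast, Nebl was at 9.63 and 100 CPM, Tbx3 at 7.56 and 54.9, Foxc1 at 42.7 and 133 and Mecom at 74.1 and 160. Tal1, at 26.4 and 30.6, and Shroom4, at 21.2 and 27.9, were at similar levels. Erg, a factor that maintains endothelial genes, was at 55.0 and 96.2 CPM. Foxa2, Pax3 and Irx2 were at or below 0.143 CPM at both ages. These genes with many lost regions were thus barely detected in the gated E12.5 and P8 cells. In the E9.5 library they were at 0.901, 2.155 and 1.24 CPM.

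Levels of other cells' genes differed between the same libraries. The 6 erythroid markers summed to 12158 CPM at E12.5 and 36.6 at P8, with a UMI of at least 1 of them in 99.7% and 6.36% of gated cells. The 6 macrophage markers summed to 272 and 13.0 CPM, which bears on C1qa (65.9 and 4.18 CPM) and C1qb (70.6 and 1.20). Neural progenitor markers summed to 116 and 364 CPM, mesenchyme markers to 45.9 and 119, and cardiomyocyte markers to 4.42, with 2 of 6 genes at 0, and 2.19, with 1 at 0. In the E9.5 library 11063 of 17176 cells passed the gate. There the erythroid markers summed to 4535 CPM, cardiomyocyte markers to 140, neural progenitor markers to 137, macrophage markers to 74.7 and mesenchyme markers to 53.2. The part of these other cells in the levels of the named genes, and in the shares of nearest genes, was not tested.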

How the data were processed

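ATAC-seq peak lists of 66 libraries (37 endothelial, 29 input) and single-cell UMI counts of 4 brain libraries were used. Reads were mapped to mm10 with Bowtie2 and handled with SAMtools 1.13 and Picard, per the submitters' processing notes. Peaks were called in each library on its own with MACS2 2.1.2, without a control, at q 0.05 (0.1 for broad regions), cut sites shifted by -100 bp and extended to 200 bp, 1 tag kept per position, per the file headers. The deposited columns hold the pileup signal, the fold enrichment over local background, and −log10 of p and q, all made by the authors' caller. The single-cell counts are UMI counts deposited by the authors after Cell Ranger, per the submitters' processing notes. Endings of the tag-file names in the headers differ by organ at E12, so organ and read processing cannot be told apart there.

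Peaks overlapping by at least 1 bp were merged. The nearest gene was taken by gene body, because the RefSeq table used (GRCm38.p6) gives no strand, and starts are listed for 17491 of 21883 protein-coding genes. Motifs were searched only in listed promoter windows. The naming rule takes the 10 lost regions of highest mean fold rank, the 10 highest with no input peak, the 10 highest just outside the rule, the 20 genes with most lost regions (ties by higher mean fold rank, which took 9 of the 18 genes with 5), and list genes with a lost region within 50 kb. Other genes and the printed promoters were chosen after their values were seen, as were the Hox list and the microRNA window. The members and lists were chosen with earlier results of these data known. CPM scales the UMIs of a gene to all UMIs of the gated cells of a library. P6 and adult input shares were compared by permutation (100000 resamples); the test designed for E12 against postnatal inputs is not given, since the choice of regions can set its direction. Intervals are exact 95%. Scripts used Python 3.11.15, NumPy 2.4.6, pandas 2.3.3, SciPy 1.17.1 and matplotlib 3.10.9, and were tested on simulated peak lists. Bulk RNA and the E16.5 cells were not used here. Alternatives covered peak thresholds, equal list lengths, library minimums, overlap and distance windows, cell gates and each library left out.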

Additional observations from a re-analysis of the deposited data

Results flagged for a closer look

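In E12 heart endothelium, replicate 3 held a peak in 5.95% of the lost regions, far from the 3 other heart libraries. Its list had 39096 peaks and 83% redundant tags, and 2951 regions met the rule without it. The criterion that marks such a gap is met by chance in about 1 of 20 groups, and the cause was not tested.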

How the results depend on the processing

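The number of lost regions, 2974, rested on list length and strictness. It was 1679 with peaks of fold 3 or more, 228 with equal numbers of top peaks, 7104 with 1 E12 library per organ, 92 with all E12 libraries, 4930 allowing 1 postnatal library and 7414 with postnatal brain and heart alone. With E12 lists cut to 75000, 50000 and 30000 peaks, alternatives chosen after seeing the data, it was 976, 190 and 22. Leaving out 1 endothelial library gave 2115 (E12 brain replicate 2) to 3260 (P6 liver replicate 1). Regions with an E12 input peak, 1886, became 340 with equal numbers of top input peaks and 1449 to 1826 without 1 input. The E12 to postnatal input difference was 30.0 to 38.7 points without 1 input. The P6 to adult difference, 6.88 points, was 0.244 points with equal input lists (permutation p = 0.285) and 6.20 to 7.55 points without 1 input. The share within 1 kb of a start, 2.79%, was 4.34% at 2 kb. Listed genes near a lost region, Hox genes left aside, numbered 50 at 50 kb and 22 at 10 kb. The share of nearest genes lower at P8, 21.5%, was 25.3% against E9.5, an alternative chosen after seeing the data. The causes were not tested, beyond the fewer or more peaks each alternative reads. With a replicate block, an alternative chosen after seeing the data that pairs P6 and adult inputs of the same organ and number, the difference was 8.78 points over 8 pairs, 7 of them higher at P6 (exact permutation p = 0.0156). The labels do not say that a number marks a shared animal or day. Depth limits the absence of a peak: it shows only that none was called at that library's depth, and single-cell levels rest on 1 library per age.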
